A study of Mus musculus with 10 samples.

Results

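Axon guidance ligands and receptors were followed in the developing mouse neocortex. The set was chosen by gene name only: semaphorins (Sema), plexins (Plxn), neuropilins (Nrp), ephrins (Efna, Efnb), Eph receptors (Epha, Ephb), Slit ligands and Robo receptors, netrins and their receptors Dcc and Unc5, Trk receptors (Ntrk), Lingo proteins, and Nogo (Rtn4) with its receptors. It held 36 of the 6147 genes in the deposited table, in 15 families, out of 83 protein-coding genes whose names fit the rule in GENCODE release M21; the other genes of those families were not analysed here. No netrin and no Unc5 gene was among the 36. All 36 passed the minimum mean of 1 TPM (a gene's share of all transcripts, corrected for gene length), with means over all libraries from 7.10 to 384 TPM and no value at 0.

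The samples were neocortices of CD1 wild type mice, an outbred strain, taken on 4 days of gestation (E12.5, E14, then E15.5 and E17) and at birth (P0). Each stage had 2 libraries, 10 in all, and the labels list no altered allele and no treatment. The design text calls the pairs biological duplicates, and the labels give no animal, litter, sex or batch, so that p-values measure the spread between 2 libraries a stage. RNA came from tissue lysates cleared of pellet before extraction and was sequenced from polyadenylated transcripts.

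Axon guidance cues are secreted or membrane-bound proteins that attract or repel the growing tip of an axon, the growth cone, through receptors on its surface. Semaphorins act through plexins, with neuropilins as co-receptors for the secreted class 3; ephrins act through Eph receptors and can also signal back into the cell that carries them; Slits act through Robo receptors. In the developing neocortex these families are known for routing callosal, corticothalamic and corticospinal axons, and several also act on progenitors, on migrating neurons and on blood vessels.

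The tissue label was checked against listed genes of neocortical projection neurons and their progenitors (11 of 17 in the table). Their summed level was 2984 to 3040 TPM at E12.5 and 4660 to 5378 TPM at P0. Summed proliferation genes (18 of 20 in the table) went from 2367 to 2464 TPM at E12.5 to 244 to 256 TPM at P0, and genes of neuronal maturation (17 of 19) from 772 to 780 TPM to 3987 to 4051 TPM. Listed genes of meninges, blood, choroid plexus and vessels were higher early. The remaining lists did not share a direction. Cnp, 1 of 9 oligodendrocyte lineage genes, went from 11.9 to 13.1 TPM at E12.5 to 18.6 to 19.5 TPM at P0. C1qb, 1 of 10 microglial genes, was at 7.96 to 8.23 TPM and 7.07 to 7.81 TPM. Astrocyte genes (6 of 9) went from 453 to 484 TPM to 295 to 299 TPM. Of 14 ventral forebrain genes 0 were in the table, so that tissue could not be checked. Listed meningeal genes (8 of 10) summed to 883 to 955 TPM at E12.5, 743 to 749 TPM at E14 and 82.6 to 88.4 TPM at E15.5, and to 42.8 to 53.7 TPM at P0; 6 of the 8 were under 1 TPM in at least 1 library. Embryonic globins (2 of 9 erythroid genes) went from 4318 to 4490 TPM at E12.5 to 8.38 to 9.12 TPM at E15.5. The choroid plexus genes Ttr and Clic6, 2 of 10 on their list, reached 1405 to 1517 TPM at E14 and 3.47 to 4.25 TPM at E15.5. Vascular genes (3 of 12) went from 82.5 to 88.3 TPM to 8.45 to 10.1 TPM between E12.5 and P0. One library stood apart. In E17 replicate 1, 35 of the 36 guidance genes were higher than in E17 replicate 2, beside 72.0% of the 6048 genes tested. The median difference was 0.56 on the log2(TPM + 1) scale, against 0.16 over all genes. Values in that library also increased with transcript length, by 0.22 log2 units per doubling against −0.07 to 0.02 in the other 9, and the guidance genes are long (a median of 6000 bases against 3383 for all listed genes). Tested differences that involve E17, and most counts, are therefore given with and without it. A fit that leaves out 1 of the E17 libraries has only 1 at that stage. Its calls there rest on the spread of the other stages.

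From E12.5 to P0 the guidance genes parted into losers and gainers. Ephrin-B1, Dcc, Slit2, neuropilin 2 and plexin-B2 fell most, by 3.85- to 10.1-fold in mean TPM, and Lingo1, Sema7a, Ntrk2 and Rtn4r rose most, by 2.80- to 9.07-fold. With limma on log2(TPM + 1) and Benjamini-Hochberg adjustment over all genes, 9 members rose and 17 fell at an adjusted p under 0.05, where 27.1% and 51.0% of all tested genes rose and fell (78.2% in either direction). The median difference, −0.28 over the members and −0.27 over all genes, was nearly the same, and the members' counts were close to the background. With median-of-ratios scaling, which moves the median of all genes to −0.01, the counts were 13 higher and 15 lower, beside 37.9% and 37.7% of all genes. In the test over all 5 stages 35 of 36 members changed (82.9% of all genes did); the exception was Rtn4rl2, a relative of the Nogo receptor, at an adjusted p of 0.183. In whole tissue, fewer cells of a type and less RNA per cell cannot be told apart.

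**Figure D1:**
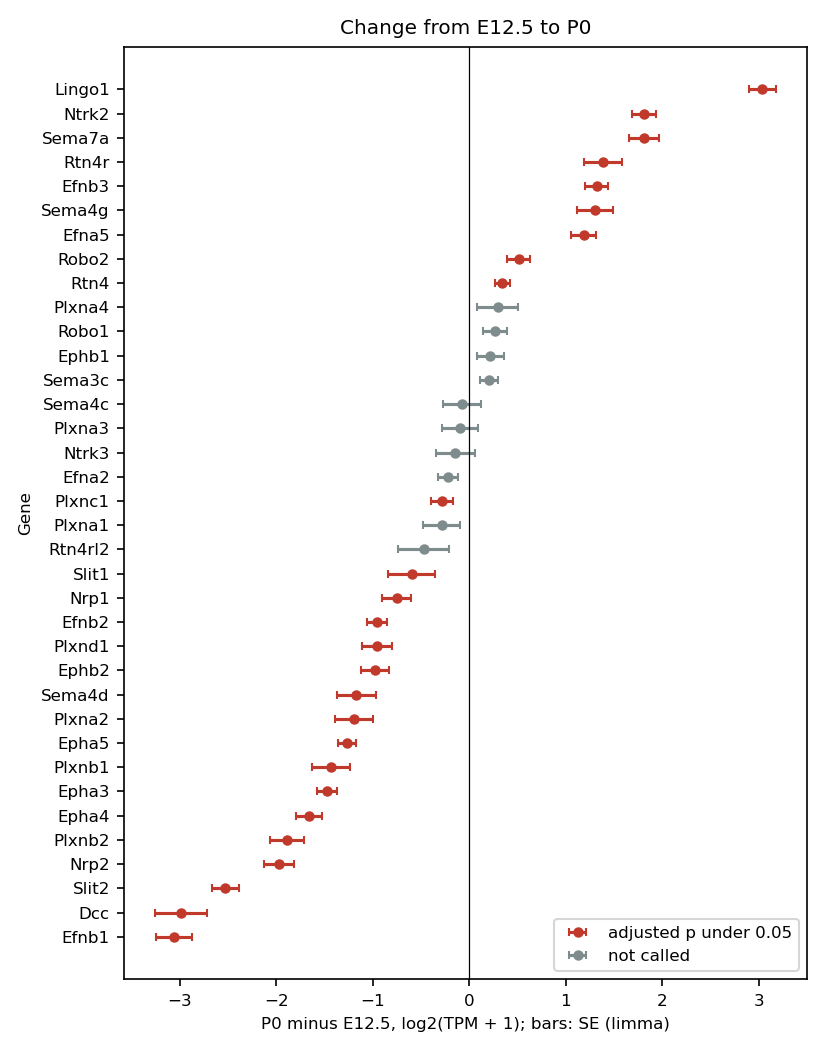
Difference between P0 and E12.5 for each of the 36 guidance genes on the log2(TPM + 1) scale (x axis; points: limma estimates, bars: SE, colours: whether the adjusted p was under 0.05). The estimates run from −3.06 for Efnb1 to 3.04 for Lingo1, with 17 called lower and 9 called higher.

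The sequences just upstream of 4 genes with large opposite changes are shown so that the losers and gainers can be compared at their start sites. They come from the RefSeq promoter table for GRCm38.p6, which held 30 of the 36 members (not Dcc, Efnb3, Ntrk3, Plxna1, Plxna4 or Slit1). Each line reads 5′ to 3′ along the gene's strand and stops before the first annotated exon; capitals mark GGGCGG, the GC box. Efnb1 and Slit2 fell, and Lingo1 and Ntrk2 rose. The windows are chrX:99135811-99136060 (plus strand), chr5:47982905-47983137 (plus), chr9:56796469-56796560 (minus) and chr13:58806319-58806568 (plus).
Efnb1: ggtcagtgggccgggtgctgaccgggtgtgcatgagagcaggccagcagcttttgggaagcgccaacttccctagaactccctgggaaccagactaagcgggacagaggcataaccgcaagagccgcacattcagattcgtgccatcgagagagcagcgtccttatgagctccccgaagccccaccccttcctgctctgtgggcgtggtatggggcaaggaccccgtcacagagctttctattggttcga
Slit2: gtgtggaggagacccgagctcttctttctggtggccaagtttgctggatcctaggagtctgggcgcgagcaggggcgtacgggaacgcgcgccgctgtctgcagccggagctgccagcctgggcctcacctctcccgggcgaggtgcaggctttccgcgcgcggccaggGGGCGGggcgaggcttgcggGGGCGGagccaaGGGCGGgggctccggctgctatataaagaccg
Lingo1: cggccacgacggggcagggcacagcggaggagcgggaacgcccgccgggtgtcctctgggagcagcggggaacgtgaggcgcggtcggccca
Ntrk2: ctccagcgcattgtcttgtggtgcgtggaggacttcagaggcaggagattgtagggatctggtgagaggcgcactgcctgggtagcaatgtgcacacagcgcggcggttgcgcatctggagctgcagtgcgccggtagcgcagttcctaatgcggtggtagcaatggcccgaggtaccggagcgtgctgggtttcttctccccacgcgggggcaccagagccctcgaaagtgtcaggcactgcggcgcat
The sequences are unequal in length, with 250 bases for Efnb1 and Ntrk2, 233 for Slit2 and 92 for Lingo1. Absence of a motif from the short Lingo1 sequence is thus not comparable with absence from the others. Slit2 held 3 GC boxes and the other 3 sequences none of the motifs searched, on both strands. These were the GC box, an E-box with the letters CAGCTG, and the cAMP response element with the letters TGACGTCA; none of the motifs is contained in another. In the full windows of 250 bases upstream, the GC box was present in 22 of 30 members (73.3%) and 63.7% of 4841 listed genes. The E-box was in 3 of 30 members and 10.2% of listed genes, and the cAMP response element in 0 members and 3.08%. The median GC content of the windows was 67.2% over the members and 60.8% over the listed genes. A match describes the letters and not a bound site.

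Among the semaphorins, the ligands of plexins, the 5 listed members did not move together. Sema7a, a membrane-anchored semaphorin known to promote axon growth, was at 20.0 and 21.6 TPM at E12.5, 24.9 and 24.7 at E14, 40.2 and 41.5 at E15.5, 86.7 and 56.2 at E17 and 78.5 and 72.3 at P0. Both P0 libraries lay above all libraries up to E15.5, and the E12.5 to P0 difference was 1.81 (SE 0.16, adjusted p = 6.37e-07, limma). Sema4g, a transmembrane class 4 semaphorin, was at 18.4 and 20.1 TPM at E12.5, 26.5 and 27.0 at E14, 38.5 and 37.5 at E15.5, 76.2 and 45.4 at E17 and 53.1 and 45.1 at P0. It rose by 1.30 (SE 0.18, adjusted p = 4.36e-05, limma). Its 2 end stages did not overlap, which held for 32.5% of all tested genes in that direction. Sema4d, the class 4 ligand of plexin-B1, went the other way, with 22.0 and 21.7 TPM at E12.5, 21.9 and 21.7 at E14, 16.7 and 16.5 at E15.5, 27.6 and 14.8 at E17 and 9.51 and 8.81 at P0. Its E12.5 to P0 difference was −1.17 (SE 0.20, adjusted p = 0.000238, limma). Both P0 libraries were lower than every earlier library. As a share of the summed TPM of class 4, Sema4d went from 28.8% to 10.1% and Sema4g from 25.3% to 53.7%. Sema4c, the most abundant class 4 member, was at 32.9 and 37.1 TPM at E12.5, 31.9 and 34.4 at E14, 40.8 and 41.1 at E15.5, 77.9 and 45.0 at E17 and 37.1 and 29.4 at P0; the end stages overlapped and differed by −0.08 (adjusted p = 0.737, limma). Sema4c shares 7.27% of its exon bases with a gene on the opposite strand, and whether the counting used strand is not stated.

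Sema3c is the secreted class 3 semaphorin known as an attractant for callosal axons, and it peaked late. It was at 17.6 and 17.5 TPM at E12.5, 18.8 and 21.8 at E14, 30.5 and 31.1 at E15.5, 47.2 and 49.5 at E17 and 20.0 and 20.6 at P0. Both E17 libraries were above all others, and here E17 replicate 1 was the lower of the pair. It rose by 0.58 from E14 to E15.5 (adjusted p = 0.000439, limma) and by 0.63 from E15.5 to E17 (adjusted p = 0.00134), then differed by −1.21 from E17 to P0 (adjusted p = 9.97e-06). Without E17 replicate 1 the last 2 differences were 0.67 and −1.24.

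Both neuropilins, the co-receptors of class 3 semaphorins, fell by birth (51.0% of all genes fell), along different courses. Nrp1 was at 26.8 and 27.4 TPM at E12.5, 26.8 and 30.9 at E14, 38.8 and 39.0 at E15.5, 62.5 and 42.5 at E17 and 15.9 and 15.4 at P0. It rose from E14 to E15.5 (0.42, adjusted p = 0.0333, limma; the call was lost without any 1 of the E12.5, E14, E15.5 or P0 libraries). The step to E17 was not called (0.40, adjusted p = 0.0699, and 0.13 without E17 replicate 1). Both P0 libraries lay below all earlier ones, with an E17 to P0 difference of −1.66 (SE 0.15, adjusted p = 1.76e-05) and of −1.38 without E17 replicate 1. Nrp2 was at 33.3 and 33.1 TPM at E12.5, 28.3 and 32.1 at E14, 19.7 and 18.6 at E15.5, 28.8 and 19.0 at E17 and 7.95 and 7.52 at P0. The E12.5 to P0 differences were −1.97 for Nrp2 (SE 0.16, adjusted p = 3.14e-07) and −0.75 for Nrp1 (SE 0.15, adjusted p = 0.000624). Neuropilin 1 thus made up 44.9% of the pair's summed TPM at E12.5 and 67.0% at E15.5 and at P0.

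Of the 8 plexins, the semaphorin receptors, 5 fell from E12.5 to P0, none rose and 3 were not called. Of all genes tested, 51.0% fell and 27.1% rose. Plxnb2, a receptor of class 4 semaphorins also known in neural progenitors, was at 67.5 and 77.6 TPM at E12.5, 55.8 and 56.2 at E14, 34.2 and 32.9 at E15.5, 57.3 and 34.9 at E17 and 20.0 and 17.7 at P0. Both P0 libraries were the lowest, and the difference was −1.89 (SE 0.18, adjusted p = 1.25e-06, limma). Plxna2, a partner of neuropilins and the most abundant plexin, was at 89.8 and 97.8 TPM at E12.5, 85.7 and 91.9 at E14, 85.1 and 79.9 at E15.5, 145.5 and 79.5 at E17 and 39.7 and 41.1 at P0. Its P0 pair lay below all other libraries, with an E12.5 to P0 difference of −1.20 (SE 0.20, adjusted p = 0.000173). Plxnb1 differed by −1.43 (adjusted p = 3.81e-05) and Plxnd1 by −0.96 (adjusted p = 0.00013). The call on Plxnc1, at −0.28 (adjusted p = 0.0424), was lost in 10 of 22 alternatives and turned to 0.22 under quantile normalization. Plxnd1, a receptor best known in blood vessels, had its own course: 21.8 and 24.7 TPM at E12.5, 18.4 and 18.3 at E14, 7.94 and 6.66 at E15.5, 13.5 and 9.30 at E17 and 12.1 and 10.9 at P0. Its lowest pair was E15.5, and it fell by 1.23 on the log2 scale between E14 and E15.5 (adjusted p = 5.23e-05), where the 3 listed vascular genes went from 54.8 to 59.5 TPM to 16.3 to 16.9 TPM; their part in this fall was not tested. Plxna1 (−0.28), Plxna3 (−0.09) and Plxna4 (0.29) were not called. Plxna1 was called lower in 5 of 22 alternatives, and Plxna4 higher in 7, among them median-of-ratios scaling (0.57, adjusted p = 0.013) and the fits without either E17 library. Plxna4 rose from 45.8 and 47.2 TPM at E15.5 to 133 and 69.7 at E17, by 1.04 (0.57 without E17 replicate 1), and stood at 43.8 and 48.4 at P0.

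Ephrin-B ligands, which sit in the membrane and bind EphB receptors and Epha4, were the most abundant family, at a summed 853 TPM at E12.5 and 452 to 479 TPM at P0. Its make-up shifted. Efnb1 (chrX:99136130-99148991, GRCm38), the ephrin known in cortical progenitors, was at 315 and 327 TPM at E12.5, 216 and 213 at E14, 112 and 108 at E15.5, 139 and 79.9 at E17 and 41.0 and 34.7 at P0. Each step but E15.5 to E17 took both libraries below the pair before, and the E12.5 to P0 difference was −3.06 (SE 0.19, adjusted p = 3.17e-08, limma), or 8.48-fold in mean TPM. Efnb3, known as a midline barrier to corticospinal axons in the spinal cord, was at 78.0 and 74.9 TPM at E12.5, 79.2 and 84.6 at E14, 122.6 and 130.4 at E15.5, 226 and 173 at E17 and 207 and 179 at P0. It rose by 1.32 (SE 0.12, adjusted p = 8.31e-07), with no overlap between the end stages. Efnb2, an ephrin of neurons and of arterial vessels, was the most abundant gene of the 36: 460.1 and 451 TPM at E12.5, 388 and 405 at E14, 408 and 391 at E15.5, 490.5 and 381 at E17 and 230.4 and 239 at P0. Its P0 pair lay below all other libraries (−0.95 from E12.5, SE 0.10, adjusted p = 4.66e-06). Efnb1 therefore went from 37.6% to 8.11% of the family's summed TPM and Efnb3 from 8.96% to 41.4%, while Efnb2 stayed between 50.5% and 62.8% in stage means.

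**Figure D2:**
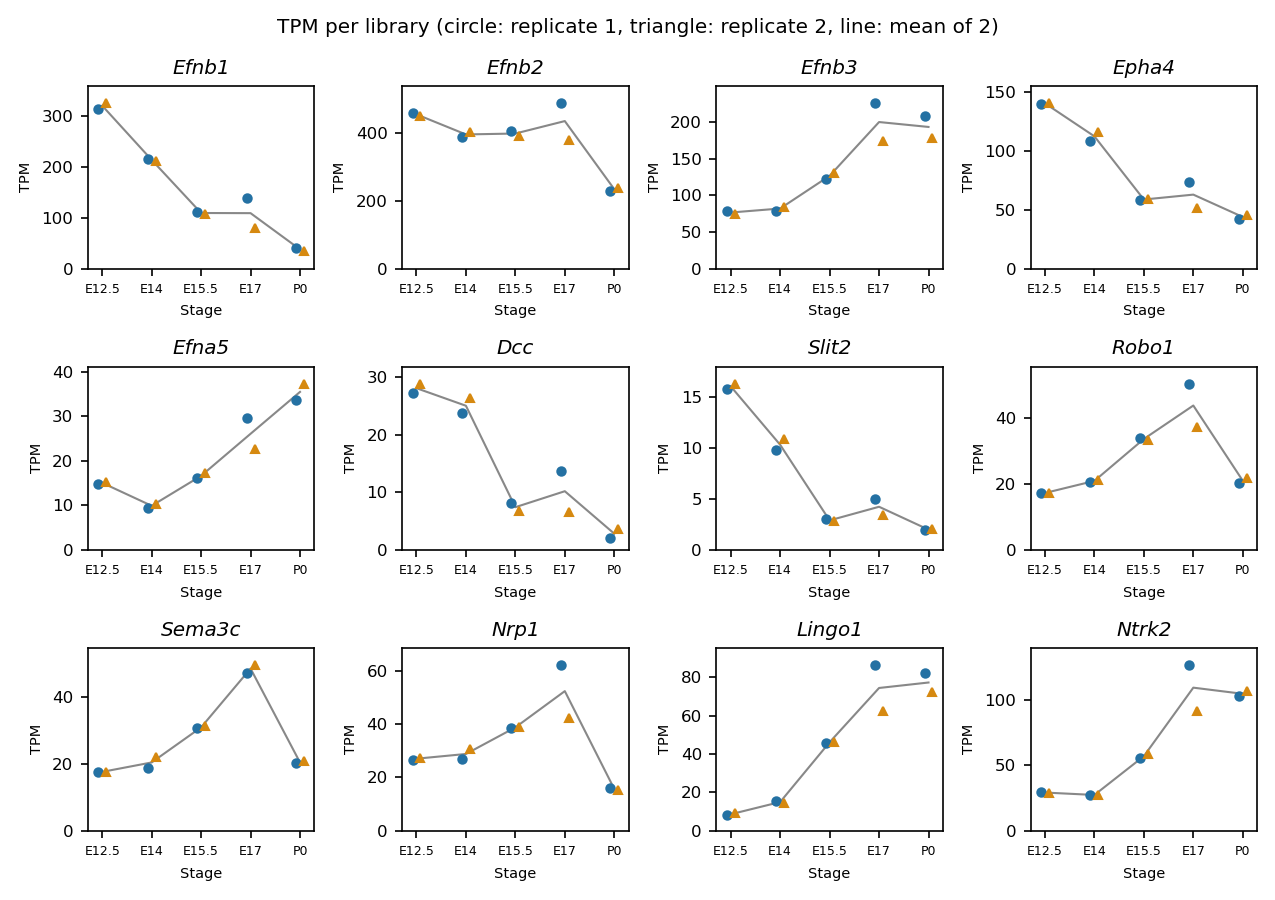
TPM (y axis, linear, each from 0) by stage (x axis) for 12 guidance genes; circles are replicate 1, triangles replicate 2 and lines join the means of 2. Efnb1, Epha4, Dcc and Slit2 decline, Efnb3, Efna5, Lingo1 and Ntrk2 climb, and Robo1, Sema3c and Nrp1 are highest at E17.

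Ephrin-A ligands are lipid-anchored and bind EphA receptors. Efna5, known in the mapping of thalamic axons onto cortical areas, was at 14.8 and 15.2 TPM at E12.5, 9.44 and 10.3 at E14, 16.1 and 17.2 at E15.5, 29.6 and 22.6 at E17 and 33.6 and 37.4 at P0. It dipped at E14 (−0.56 from E12.5, adjusted p = 0.0215, limma) and then rose at each step. Its E12.5 to P0 difference was 1.19 (SE 0.13, adjusted p = 4.48e-06). It was the only member called higher at P0 than at E17 (0.44, adjusted p = 0.018). Leaving out E17 replicate 1 gave 0.63 and leaving out E17 replicate 2 gave 0.25, and the call was lost without P0 replicate 2, with array weights and with only the 4 libraries compared. The step from E15.5 to E17 was 0.61, and 0.42 without E17 replicate 1. Efna2 was at 64.4 and 64.4 TPM at E12.5, 55.8 and 52.6 at E14, 55.8 and 54.5 at E15.5, 83.2 and 66.2 at E17 and 57.3 and 52.9 at P0. Its end stages did not overlap, but the difference of −0.22 was not called (adjusted p = 0.0681). It was called lower in 5 of 22 alternatives and turned to 0.049 with median-of-ratios scaling. Of the ephrin-A total, Efna5 made up 18.9% at E12.5 and 39.2% at P0.

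All 3 listed EphA receptors fell from E12.5 to P0 (51.0% of all genes fell). Epha4, which binds ephrins of both classes and is known for the routing of corticospinal axons, was at 140.1 and 141 TPM at E12.5, 109 and 117 at E14, 58.6 and 59.0 at E15.5, 74.0 and 51.9 at E17 and 42.0 and 45.8 at P0. Both P0 libraries were below all others, and the largest step, −0.93 (SE 0.13, adjusted p = 0.000129, limma), was from E14 to E15.5. From E12.5 to P0, Epha4 differed by −1.66 (SE 0.13, adjusted p = 3.01e-07), Epha3 by −1.47 (adjusted p = 8.52e-08) and Epha5 by −1.27 (adjusted p = 1.83e-07). The summed EphA level was 314 to 316 TPM at E12.5 and 108 to 115 TPM at P0. The EphB receptors bind ephrin-B ligands; of the 2 listed, Ephb2 was at 71.1 and 81.7 TPM at E12.5, 58.7 and 58.3 at E14, 46.3 and 43.3 at E15.5, 74.0 and 49.6 at E17 and 38.6 and 37.9 at P0. It was lowest in the P0 pair (−0.98 from E12.5, SE 0.15, adjusted p = 8.14e-05). Ephb1 differed by 0.22 (adjusted p = 0.178). It was called higher in 5 of 22 alternatives, among them median-of-ratios scaling (0.48, adjusted p = 0.00229, limma).

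**Figure D3:**
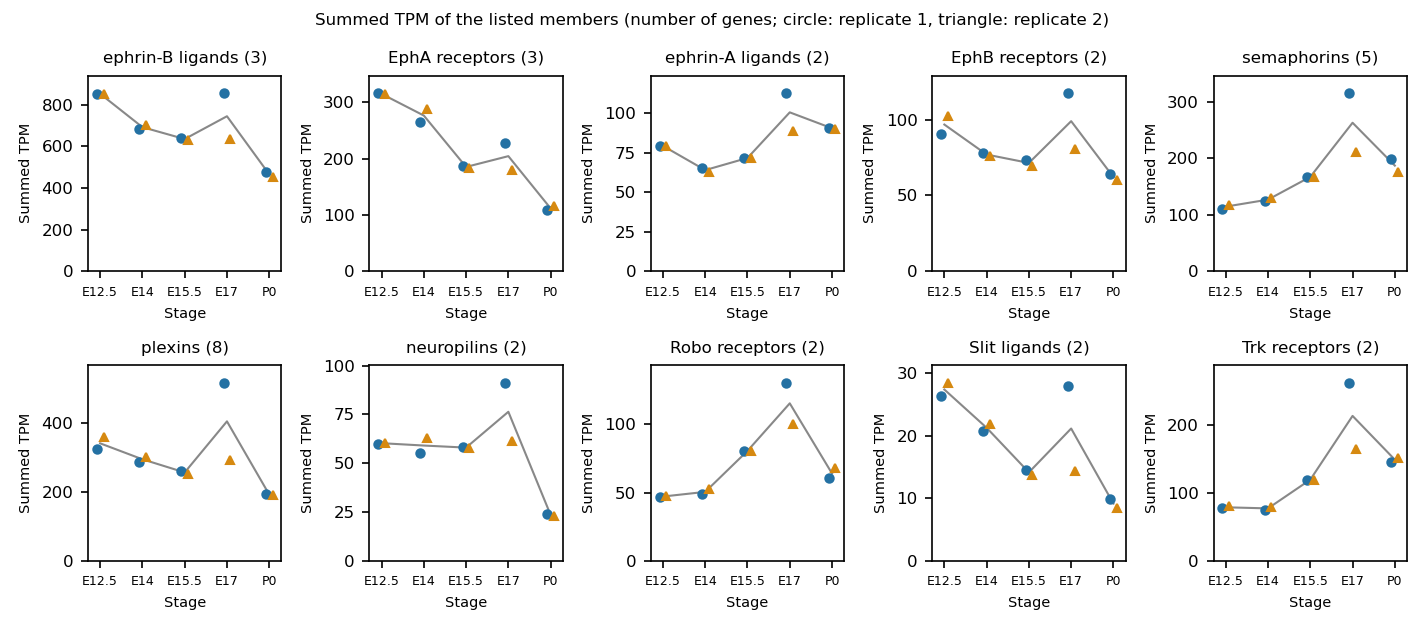
Summed TPM (y axis, linear, from 0) of the listed members of 10 groups by stage (x axis); circles are replicate 1, triangles replicate 2, lines join the means, and the number of genes is in brackets. Ephrin-B ligands and EphA receptors decline, with EphA sums of 314 to 316 TPM at E12.5 and 108 to 115 TPM at P0, while the E17 circle lies above the triangle in all 10 panels.

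Both listed Slits, secreted repellents, fell from E12.5 to P0 (51.0% of all genes fell). Of their 2 listed Robo receptors, 1 was called higher (27.1% of all genes). Slit2 (chr5:47983138-48307733, GRCm38) was at 15.8 and 16.4 TPM at E12.5, 9.79 and 10.9 at E14, 2.99 and 2.77 at E15.5, 4.999 and 3.44 at E17 and 1.95 and 1.99 at P0. It was lower in both libraries at E14, E15.5 and P0 than at the stage before, with an E12.5 to P0 difference of −2.53 (SE 0.14, adjusted p = 1.34e-08, limma). Slit1 was at 10.5 and 12.1 TPM at E12.5, 10.9 and 11.0 at E14, 11.6 and 10.9 at E15.5, 22.9 and 11.0 at E17 and 7.86 and 6.48 at P0. Its libraries lay between 10.5 and 12.1 TPM but for a higher E17 replicate 1 and a lower P0 pair, and its E12.5 to P0 difference of −0.60 (adjusted p = 0.0396) lost its call without any 1 of the E12.5, E14, E15.5 or P0 libraries (12 of 22 alternatives in all). Slit1 made up 41.3% of the pair's summed TPM at E12.5 and 78.3% at P0. Robo1, known in callosal and corticofugal axons, was at 17.2 and 17.3 TPM at E12.5, 20.6 and 21.3 at E14, 34.0 and 33.5 at E15.5, 50.6 and 37.2 at E17 and 20.2 and 21.9 at P0. Both E17 libraries were its highest. Robo2 was at 29.2 and 30.4 TPM at E12.5, 28.1 and 30.9 at E14, 46.6 and 47.2 at E15.5, 80.0 and 63.1 at E17 and 40.1 and 45.8 at P0. Both rose from E14 to E15.5, by 0.66 (adjusted p = 0.00115) and 0.65 (adjusted p = 0.000703), and both fell after E17, by 1.01 and 0.72 on the log2 scale (adjusted p = 0.000159 and 0.000794), or 0.80 and 0.55 without E17 replicate 1. At P0 Robo2 was still above E12.5, by 0.51 (SE 0.12, adjusted p = 0.00172), and Robo1 differed by 0.27 (adjusted p = 0.0731). Robo1 was called higher in 7 of 22 alternatives, among them median-of-ratios scaling (0.53, adjusted p = 0.000326) and the fits without either E17 library.

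Dcc, the netrin receptor that mediates attraction to the midline, was at 27.3 and 28.9 TPM at E12.5, 23.8 and 26.3 at E14, 8.03 and 6.74 at E15.5, 13.7 and 6.61 at E17 and 1.94 and 3.61 at P0. Both early pairs lay above all later libraries and both P0 libraries below all others. The E14 to E15.5 step was −1.64 (SE 0.27, adjusted p = 0.000377, limma), and the whole difference was −2.98 (SE 0.27, adjusted p = 9.29e-07). In mean TPM Dcc went from 28.1 to 2.78. The falls of Dcc, Slit2 (−1.55) and Efnb1 (−0.96) between E14 and E15.5 came at the step where the meningeal, choroid plexus and globin sums given above dropped; the part of those tissues in the falls was not tested. The proliferation sum also dropped there, from 1641 to 1717 TPM to 743 to 769 TPM, and its part was not tested either.

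The Trk receptors bind neurotrophins. Ntrk2, the receptor of BDNF, was at 29.1 and 28.9 TPM at E12.5, 27.0 and 27.4 at E14, 55.4 and 58.2 at E15.5, 127 and 91.5 at E17 and 103 and 106 at P0. The 2 last stages lay above the first 3 without overlap, and the E12.5 to P0 difference was 1.81 (SE 0.12, adjusted p = 8.54e-08, limma). Ntrk3, the receptor of neurotrophin 3, had stage means between 44.9 and 62.9 TPM outside E17 and differed by −0.15 between the ends (adjusted p = 0.525). Ntrk2 made up 36.8% of the pair's summed TPM at E12.5 and 69.9% at P0.

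The Nogo group limits neurite growth: Rtn4 (Nogo) is the ligand, Rtn4r its receptor and Lingo1 a co-receptor. Lingo1 (chr9:56618475-56796468, GRCm38) rose most of the 36, from 7.99 and 9.04 TPM at E12.5 to 15.45 and 14.4 at E14, 45.9 and 46.3 at E15.5, 86.6 and 62.2 at E17 and 82.1 and 72.3 at P0. Each stage up to E17 lay above the one before without overlap. Its E12.5 to P0 difference was 3.04 (SE 0.14, adjusted p = 2.83e-09, limma), or 9.07-fold in mean TPM. Rtn4r was at 9.08 and 10.4 TPM at E12.5, 11.1 and 10.9 at E14, 16.7 and 16.6 at E15.5, 39.4 and 23.8 at E17 and 31.0 and 23.4 at P0. It rose by 1.38 (SE 0.20, adjusted p = 4.78e-05), and both P0 libraries exceeded all libraries up to E15.5. Rtn4 was at 127 and 127 TPM at E12.5, 118 and 122 at E14, 145 and 150.3 at E15.5, 172 and 160.3 at E17 and 152 and 171 at P0. Its rise was small, 0.34 (SE 0.08, adjusted p = 0.00167), without overlap of the end stages. Rtn4 shares 18.4% of its exon bases with a gene on the opposite strand. The rises of Lingo1, Ntrk2 and Sema7a ran beside that of the summed maturation genes, whose part in them was not tested.

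**Figure D4:**
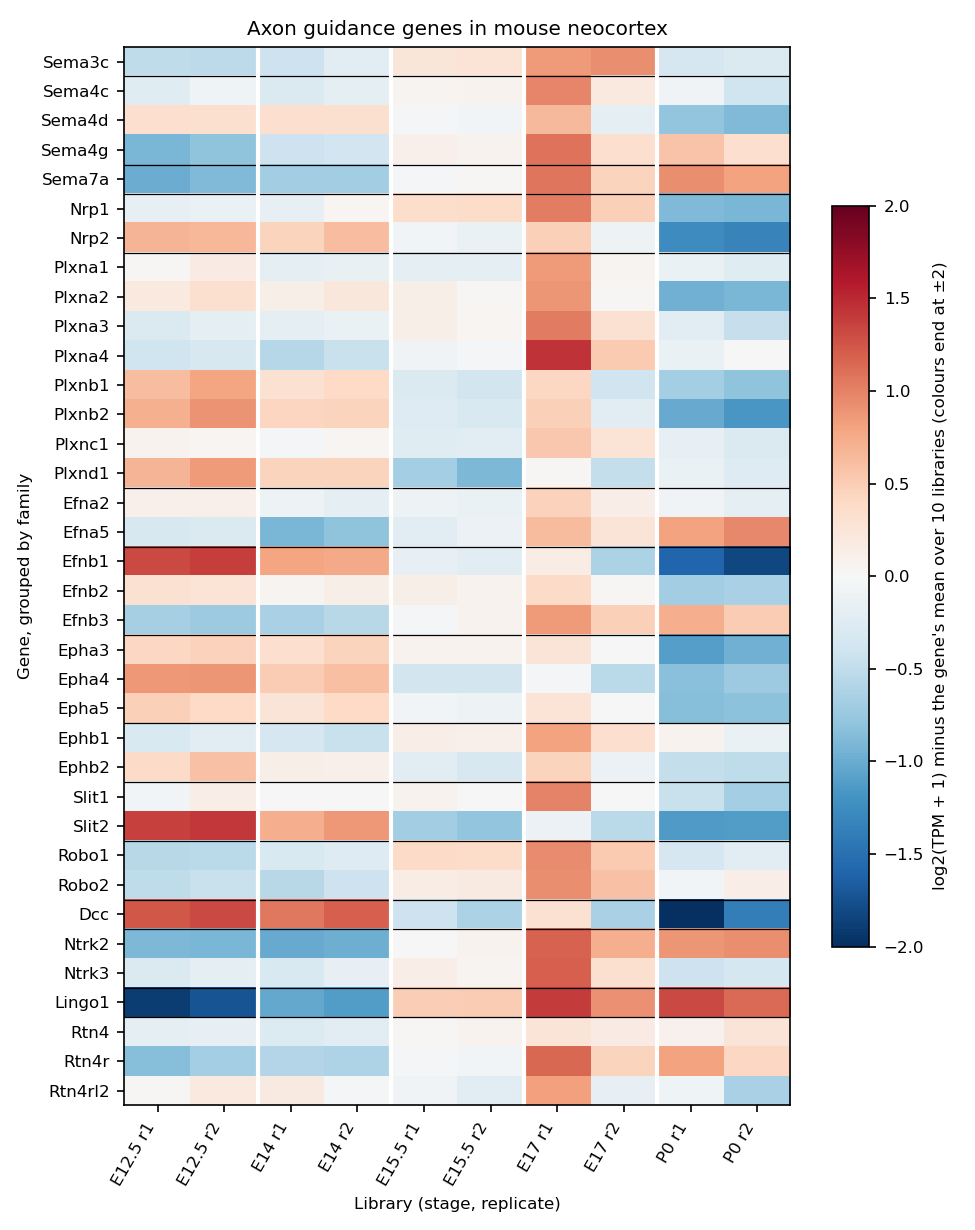
log2(TPM + 1) of each guidance gene (rows, grouped by family) minus its own mean over the 10 libraries (columns, by stage and replicate); red is above and blue below the mean, and colours end at ±2. E17 replicate 1 is redder than E17 replicate 2 in 35 of 36 rows (72.0% of all genes tested were higher in it).

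Step by step, few members had moved by E14. Lingo1 rose, and Efna5 and Slit2 fell (1 and 2 members, where 3.95% and 4.78% of all genes were called higher and lower, 8.73% in all). The count of 3 was 15 without either E17 library (29.2% of all genes), and 0 without any 1 of the E12.5 or E14 libraries (1.07% to 1.70%). From E14 to E15.5, 13 members rose and 10 fell, beside 18.4% and 33.3% of all genes (51.7% in all). The risers were led by Lingo1 (1.57), Ntrk2 (1.04), Sema7a (0.70), Efna5 (0.70) and Robo1 (0.66), and those that fell by Dcc (−1.64), Slit2 (−1.55), Plxnd1 (−1.23), Efnb1 (−0.96) and Epha4 (−0.93). Without E14 replicate 2 the 23 calls became 15 (36.6% of all genes). From E15.5 to E17, 17 members rose and 0 fell, where 14.4% and 10.6% of all genes did so (25.0% in all). Among the risers were Plxna4 (1.04), Ntrk2 (0.91) and Sema3c (0.63), at 0.57, 0.68 and 0.67 without E17 replicate 1. Of the 36 differences, 35 were above 0 (limma), with a median of 0.46 against 0.01 over all genes. Leaving out E17 replicate 1 gave 25 of the 36 above 0 and a median of 0.17 against −0.05 over all genes. Without E17 replicate 1, 11 members rose (12.2% of all genes) and 1, Efnb1, fell (17.5%); the 11 were all among the 17, and Ephb1, Ntrk3, Plxna1, Plxna3, Plxnd1 and Sema4g lost their calls. The 17 calls became 5 and 8 when E15.5 replicate 1 or 2 was left out (7.71% and 8.52% of all genes), and 35 when E17 replicate 2 was (52.3% of all genes).

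Most guidance genes fell between E17 and birth. From E17 to P0, 26 of the 36 fell, where 28.8% of all genes tested did, and 1 rose (12.9%; 41.7% changed in all). The median difference was −0.78 over the members and −0.10 over all genes. The receptors that fell were both neuropilins, 7 of 8 plexins, all 5 Eph receptors, both Robo receptors, Dcc and Ntrk3. Among ligands, Sema3c, Sema4c, Sema4d, Efna2, Efnb1, Efnb2, Slit1 and Slit2 fell. Of the 13 members that had risen from E14 to E15.5, 5 fell after E17 (Sema3c, Nrp1, Ephb1, Robo1 and Robo2) and Efna5 rose. The other 7, Lingo1, Ntrk2, Sema7a, Efnb3, Rtn4r, Rtn4 and Sema4g, had differences between −0.26 and 0.11 and were not called. Lingo1 (0.31) and Sema7a (0.42) were called higher at P0 without E17 replicate 1 (17.5% of all genes). Without E17 replicate 2, Efnb3 (−0.23), Ntrk2 (−0.28), Rtn4r (−0.53) and Sema4g (−0.63) were called lower (44.9% of all genes). The late fall was smaller without E17 replicate 1, with a median of −0.53 against −0.04 over all genes. The differences of all 26 genes stayed below 0, with E17 then resting on 1 library. A correction for transcript length and GC content, chosen after seeing the data, called the 26 and Rtn4rl2 lower (26.1% of all genes fell). It called 6 members higher (29.5%): Efna5, Lingo1, Ntrk2, Plxnd1, Rtn4 and Sema7a.

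**Figure D5:**
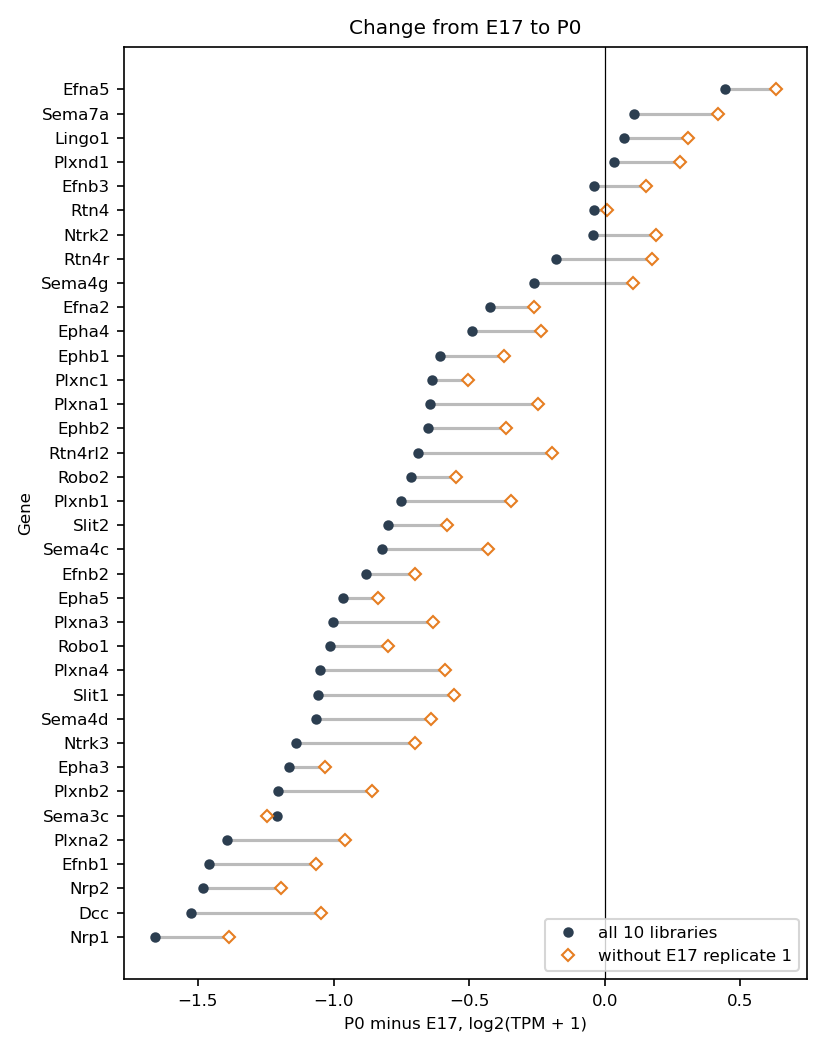
Difference between P0 and E17 for each of the 36 guidance genes (x axis, log2(TPM + 1)) with all 10 libraries (filled circles) and without E17 replicate 1 (open diamonds), joined by a grey line. Most diamonds lie nearer to 0 than the circles, and the medians are −0.78 and −0.53.

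Several guidance genes were higher in the middle stages than at the ends on average. The mean of E14, E15.5 and E17 exceeded the mean of E12.5 and P0 for 13 members (12.6% of all genes) and lay under it for 2 (11.0%; 23.6% in all). A higher average is not a peak. Of the 13, Lingo1 had its highest stage mean at P0, and Sema4d, Nrp2, Efnb2, Epha3 and Epha5 had theirs at E12.5. Nrp1 led with 0.87 (SE 0.10, adjusted p = 0.000127, limma), then Sema3c with 0.70 (SE 0.06, adjusted p = 4.22e-05) and Robo1 with 0.69 (SE 0.08, adjusted p = 0.000208). The 2 that were lower in the middle were Efna5 (−0.49, adjusted p = 0.00193) and Plxnd1 (−0.48, adjusted p = 0.00605). Without E17 replicate 1 the 5 values were 0.78, 0.71, 0.62, −0.55 and −0.56 in the same order. Of the 36, 20 had their highest stage mean at E17 (16.4% of all genes), 13 at E12.5 (47.9%) and 3 at P0 (22.7%). Without E17 replicate 1 these numbers were 11 (8.02% of all genes), 17 (50.2%) and 8 (26.1%). Without E17 replicate 1, 19 members were higher in the middle (18.1% of all genes) and 4 lower (21.6%), including all 13 and both 2; without E17 replicate 2, 27 were higher (28.5% of all genes) and 2 lower (17.9%).

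Other genes of the pathway were taken from a pair of lists written from general knowledge. Of 59 signalling genes downstream of guidance receptors, 48 were in the table, and from E12.5 to P0 22 rose and 15 fell (27.1% and 51.0% of all genes), with a median of 0.19 against −0.27 over all genes. The exchange factor Ngef (ephexin), which acts under EphA receptors, went from 0.94 and 0.96 TPM to 20.0 and 18.01, and the actin-binding Ablim1 from 16.0 and 15.3 to 67.1 and 79.3. Rnd2, a small GTPase known in migrating cortical neurons, went from 690 and 730.3 TPM to 122 and 98.7, and the transcription factor Nfatc4 from 31.5 and 34.0 to 4.08 and 4.13. These 4 were picked as the largest called rises and falls of the list from E12.5 to P0 (mean of at least 5 TPM). Their limma differences were 3.36, 2.15, −2.68 and −2.72. From E17 to P0, 10 of the 48 signalling genes fell and 9 rose (28.8% and 12.9% of all genes). The median of the 48 was −0.13 against −0.10 over all genes, and −0.007 against −0.04 without E17 replicate 1. Of 46 further ligands, adhesion molecules and receptors outside the name rule, 22 were in the table; 9 rose and 8 fell from E12.5 to P0, beside the same shares of all genes. From E17 to P0, 17 of the 22 fell and 1 rose (28.8% and 12.9% of all genes), with a median of −0.74 against −0.10 over all genes. Without E17 replicate 1, 13 fell and 2 rose (24.7% and 17.5%), with a median of −0.38 against −0.04. The largest changes from E12.5 to P0 were in Met, the receptor of hepatocyte growth factor (0.38 and 0.44 TPM to 13.4 and 13.2), the adhesion molecule Cntn1 (3.86 and 3.36 to 45.5 and 43.1), the Hedgehog co-receptor Cdon (186 and 191 to 10.4 and 10.8) and the receptor phosphatase Ptprf (70.9 and 80.9 to 21.6 and 19.0). The differences were 3.35, 3.30, −4.03 and −1.85 on the log2(TPM + 1) scale, which understates changes of genes as low as Met was at E12.5.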

How the data were processed

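Per the file headers, the authors deposited TPM with a column for each library. The submitters' processing notes name STAR, Subread and the build GRCm38.p5; the annotation, the gene lengths, the use of strand in counting and the choice of the 6147 rows are not stated in those sources. TPM keeps no read depth, so depth per library is unknown and no count model was used; the columns sum to 68.883% to 71.672% of the full TPM total. Because TPM are shares, a rise of abundant genes lowers the others.

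Columns were matched to libraries by name. Values were analysed as log2(TPM + 1) for 6048 genes, after 99 whose mean was under 1 TPM were left out. limma 3.58.1 in R 4.3.3 was fitted to the whole table with 1 mean per stage over all 10 libraries, a variance trend, and Benjamini-Hochberg adjustment over all genes, called under 0.05. Contrasts were neighbouring stages, E12.5 to P0, and the mean of the middle 3 stages minus that of the ends. In simulated data, the E12.5 to P0 contrast recovered 196 of 200 genes changed by 1 (log2) with 17 false calls among 6048 genes. The simulated noise was normal, independent and equal in all libraries of a gene, and only those 200 genes changed. In the real data 78.2% of genes were called and E17 replicate 1 stood apart, so the simulation does not give the error rate of the real calls. Positions, transcript lengths and overlaps came from GENCODE release M21, chosen here. Python 3.11.15, pandas 2.3.3 and matplotlib 3.10.9 made the tables and figures.

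Every member was tested; per-library values are printed for those with the highest mean, the largest called rise and the largest called fall from E12.5 to P0 in each family (mean of at least 5 TPM), and up to 3 with the largest called middle minus ends difference in each direction. Results were recomputed with a replicate block, without each library, on only the 4 libraries compared, with array weights, robust moderation or no variance trend, after median-of-ratios or quantile scaling, with the filter off or at 5 TPM, with 0.1 or 10 TPM as pseudocount, and after a length and GC correction. The members and lists were chosen with earlier results of these data known.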

Additional observations from a re-analysis of the deposited data

How the results depend on the processing

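Of 26 members called from E12.5 to P0, 24 were called in all 22 alternatives; Slit1 and Plxnc1 were not. The sign of the E12.5 to P0 difference turned for 5 members with small differences: Efna2 (0.049 with median-of-ratios scaling), Ntrk3 (0.087 with quantile normalization, 0.13 with median-of-ratios scaling, 0.17 with the length and GC correction), Plxna3 (0.24 with quantile normalization, 0.17 with median-of-ratios scaling, −0.217 to 0.029 leaving out 1 library, above 0 only without P0 replicate 2), Sema4c (0.18 and 0.19 in the same settings, −0.24 to 0.086 leaving out 1 library, above 0 only without E12.5 replicate 2 or P0 replicate 2) and Plxnc1 (0.22 with quantile normalization, adjusted p = 0.0404, limma). Counts of members called moved by over 1.5 times as follows, with the share of all genes called in brackets. For E12.5 to E14 (3), quantile normalization gave 5 (14.8%), array weights 16 (39.9%), only the 4 libraries compared 16 (41.0%) and the length and GC correction 14 (26.3%), and leaving out 1 library 0 to 15 (1.07% to 29.2%). For E14 to E15.5 (23), leaving out 1 library gave 15 to 30 (35.0% to 66.4%). For E15.5 to E17 (17), only the 4 libraries compared gave 1 (1.98%), and leaving out 1 library 5 to 35 (7.71% to 52.3%). For the middle stages minus the ends (15), array weights gave 23 (26.5%), the length and GC correction 24 (44.4%), and leaving out 1 library 12 to 29 (11.5% to 46.4%). Leaving out 1 library gave member medians of −0.34 to −0.20 from E12.5 to P0, beside −0.29 to −0.26 over all genes. From E17 to P0 they were −1.08 to −0.53, beside −0.18 to −0.04. All stages share 1 estimate of the spread, so leaving out either E17 library changes calls between other stages.

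Replicate numbers did not pair the libraries: deviations of same-numbered libraries correlated between −0.38 and 0.11 over the 10 pairs of stages. With the replicate number as a block, the counts were 3, 24, 17 and 28 for the neighbouring stages in order (7.64%, 49.7%, 23.3% and 39.2% of all genes), 25 from E12.5 to P0 (77.3%), 16 for the middle stages minus the ends (21.4%) and 35 over all stages (81.5%). No depth is known for any library, and 2 libraries a stage limit the precision.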
